A study of Mus musculus with 24 samples.

Results

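The 34 genes described here encode enzymes of the tricarboxylic acid (TCA) cycle (14 genes, Cs to Mdh2), of branched-chain amino acid breakdown (17 genes, Bcat2 to Auh) and of ketone use (3 genes, Bdh1, Oxct1 and Acat1). They were found by gene symbol among the 14912 genes of the deposited table, and all 34 were present. None of them had a negative value or a mean below the limit for testing, so all 34 were tested, among 14026 genes in all. The samples were left ventricles of male wild-type C57BL/6J mice infused subcutaneously by osmotic mini-pump for 7 days. The hypertensive-LVH group (12 samples) received angiotensin II (ANG II) at 1500 ng/kg/min, and the control group (12 samples) received saline. The study describes more sequenced samples per group than these 12, which are all that the deposited table used here holds. Hearts of both groups were flushed with saline before the ventricle was taken, all mice were sampled at 1 time point, and their age was not given in the sources used here. LVH stands for left ventricular hypertrophy. The comparison between the groups asks which transcripts differ in the ventricle of mice with hypertension-induced hypertrophy.

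The TCA cycle runs in the mitochondrial matrix, where citrate synthase joins acetyl-CoA to oxaloacetate and a chain of dehydrogenases passes electrons to the respiratory chain. Leucine, isoleucine and valine are transaminated and then oxidized by the branched-chain ketoacid dehydrogenase (BCKDH) complex, after which each takes its own route to acetyl-CoA or succinyl-CoA. Ketone bodies reach the heart in the blood and are turned back into acetyl-CoA. The 3 pathways thus meet in the cycle, and the adult heart uses them beside fatty acids, its main fuel.

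Levels are given in FPKM as deposited, a fragment count scaled by transcript length and library size. The values are not plain FPKM, because 2741 of them (0.766%) were negative and because exact ties between samples of the same group marked out sets of 3 samples. The sets of 3 of either group were matched by sample number into 4 sets of 3 and 3 samples. Set A holds numbers 1 to 3 of either group, set B 4 to 6, set C 7 to 9 and set D 10 to 12. Within a set, any 2 samples of the same group had 218 to 546 tied genes, against at most 14 for any 2 samples of different sets. The values were read as FPKM adjusted gene by gene within these sets, and differences are therefore also given within each set. Column sums ranged from 460715 to 567727, and the number of sequenced fragments per sample was not given in the sources used here. A log2 fold change is the hypertensive-LVH group minus the control group on the log2(FPKM + 1) scale, and a gene was called when its adjusted P was below 0.05 (limma, Benjamini-Hochberg over the 14026 genes).

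In the hypertensive-LVH group, 24 of the 34 genes fell and 0 rose. Over all genes tested, 12.6% were called lower and 20.9% were called higher, which is 33.5% in either direction. With limma at an unadjusted p below 0.05, 25 of the 34 were lower and 0 were higher. By this measure 2201 of all 14026 genes were lower and 29.0% were higher. A Wilcoxon rank-sum test with the same adjustment also called 24 lower and 0 higher, against 11.8% of all genes called lower. The median log2 fold change of the 34 genes was -0.26, and that of all genes tested was 0.05. With the fold change limit of 0.5 used for differentially expressed genes (DEGs), only Bckdha and Mccc2 were called, against 1.40% of all genes called lower in this way. The falls were thus shared by most members and small in size, between -0.76 and -0.21 on the log2 scale among the 24 genes. All 24 genes were lower in each of the 4 sets of samples, as was Aldh6a1, whose adjusted P was 0.0833 (limma). Of all genes tested, 12.8% were lower in all 4 sets, and of the 1769 genes called lower 1433 were. The 24 genes were called from these same samples, so their agreement over the sets is not a separate test.

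Most TCA cycle genes and most branched-chain genes fell, and most ketone genes were not called. Of the TCA cycle genes, 12 of 14 fell, with a median log2 fold change of -0.31 over the 14. Among the branched-chain genes, 11 of 17 fell, with a median of -0.25 over the 17. Of the ketone genes, 1 of 3 fell, with a median of -0.07. These counts and medians describe the 3 pathways, and the differences between pathways were not tested.

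**Figure D1:**
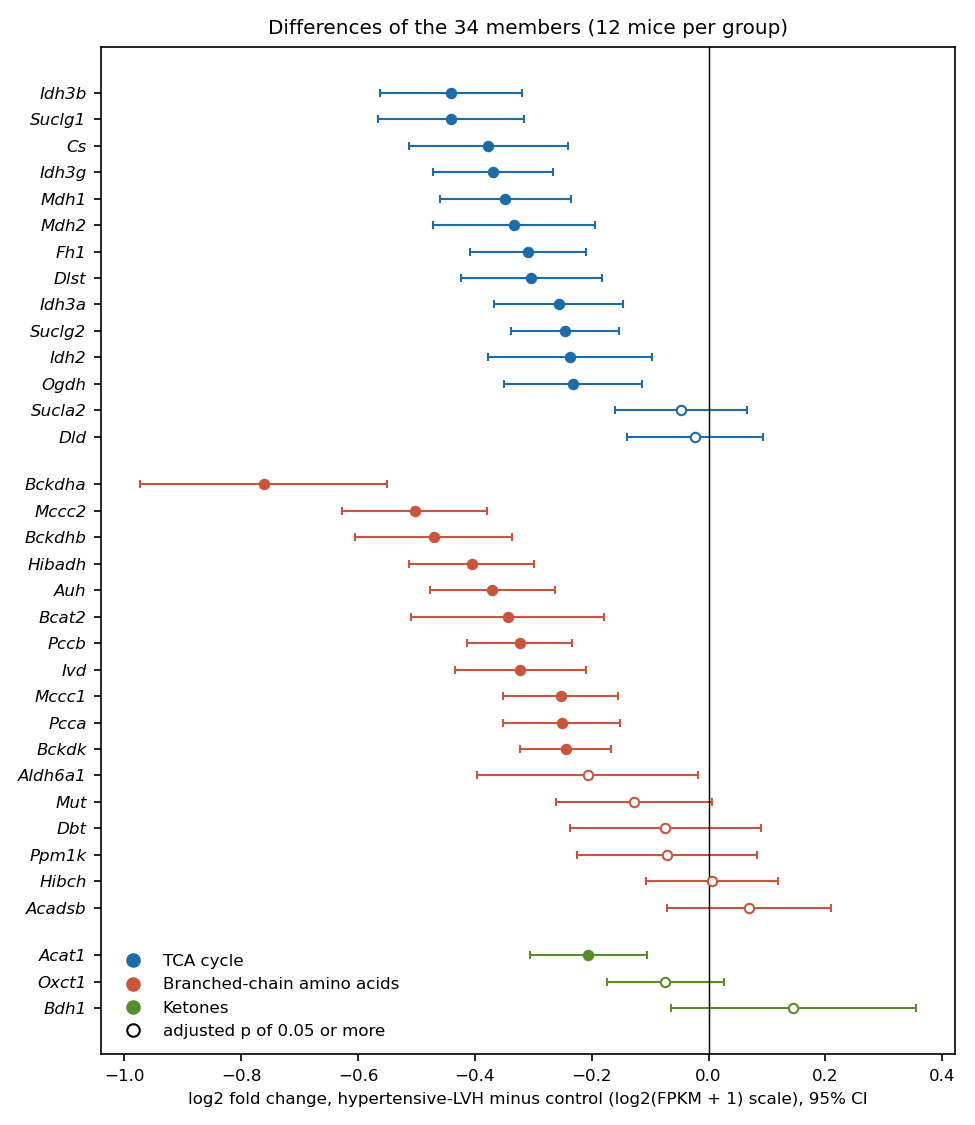
Log2 fold change (hypertensive-LVH minus control, log2(FPKM + 1) scale, x axis) of each of the 34 genes (y axis) with its 95% confidence interval from limma. Filled points mark the 24 genes with an adjusted P below 0.05, all to the left of 0, and open points mark the other 10, among them Bdh1 at 0.15.

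The mean log2(FPKM + 1) over the genes of a pathway was then taken in each sample, relative to the control mean. For the TCA cycle its lowest, median and highest values were -0.23, 0.01 and 0.15 in the control group and -0.45, -0.28 and -0.13 in the hypertensive-LVH group. For the branched-chain genes they were -0.20, 0.02 and 0.15 in the control group and -0.43, -0.29 and -0.05 in the hypertensive-LVH group. The ranges of the ketone genes were -0.11 to 0.10 in the control group and -0.25 to 0.26 in the hypertensive-LVH group. The groups overlapped in all 3 pathways, but for the TCA cycle only through control sample 2, which was also the lowest control for the branched-chain genes. This sample was the lowest of the 12 controls for 24 of the 34 genes. Without set A, which includes it, the same 24 genes were called lower. Control sample 4 was the highest control for 15 genes, and hypertensive-LVH sample 12 was the highest of its group for 16 genes.

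**Figure D2:**
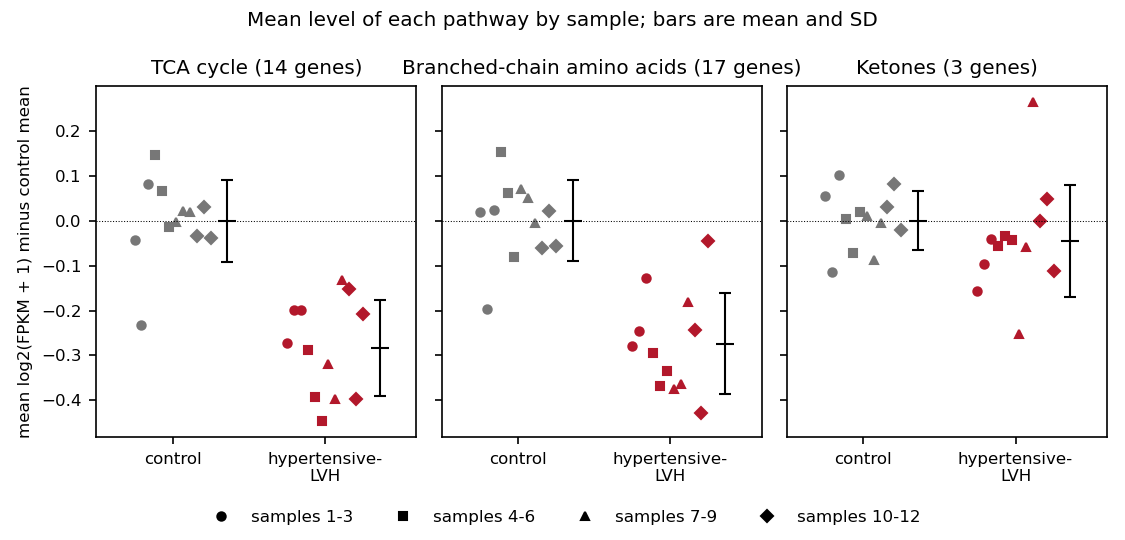
Mean log2(FPKM + 1) over the genes of each pathway minus the mean of the control group (y axis), for each sample of both groups (x axis), with the 4 sets of samples as symbols and bars for the mean and SD of 12 samples. The hypertensive-LVH samples lie between -0.45 and -0.13 for the TCA cycle and between -0.25 and 0.26 for the ketone genes.

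Markers of cardiomyocytes, the cells with most of the mitochondria of the ventricle, also fell. Of 10 cardiomyocyte markers 7 fell and 0 rose (limma, with 8 lower and 0 higher at an unadjusted p below 0.05), with a median of -0.33. Their summed level ranged from 57730 to 78790 FPKM in the control group and from 43140 to 64330 FPKM in the hypertensive-LVH group. The 3 that were not called were Myh6 at -0.23, Tnnt2 at -0.07 and Ryr2 at 0.01. Of the macrophage markers 7 of 7 rose (summed level 191 to 418 FPKM in the control group and 253 to 719 FPKM in the hypertensive-LVH group), and of the fibroblast markers 5 of 8 rose (82.4 to 1074 FPKM and 745 to 2767 FPKM). Of 6 endothelial markers 1 rose and 1 fell, with a median of -0.04, and of 5 smooth muscle and pericyte markers 1 rose. All 5 red blood cell markers were higher, with summed levels of 56.2 to 2949 FPKM in the control group and 779 to 6443 FPKM in the hypertensive-LVH group. Negative values were kept in these sums and lowered the low ends of the fibroblast and red blood cell ranges in the control group. The lowest control values were -59.5 for Col1a1, -20.2 for Col1a2, -51.7 for Col3a1 and -45.4 for Hba-a2. Fewer cardiomyocytes and less RNA of these genes per cardiomyocyte cannot be told apart in whole ventricles, and the part of these cell types in the falls was not tested.

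Set B had the largest median differences, both of the 34 genes and of the cardiomyocyte, macrophage and fibroblast markers. The median difference of the 34 genes was -0.17 in set A, -0.38 in set B, -0.26 in set C and -0.20 in set D. In the same order, the medians of the cardiomyocyte markers were -0.12, -0.58, -0.32 and -0.42, those of the macrophage markers were 0.06, 1.31, 0.39 and 0.17, and those of the fibroblast markers were 0.29, 2.62, 0.32 and 0.24. Control samples 4, 5 and 6 of set B held 359, 245 and 426 negative values over all genes. Col1a1, Col1a2 and Col3a1 had 3 negative values each, which were set to 0 in fits. They differed by 8.77, 8.40 and 9.32 in set B, and the size of these differences rests on values set to 0. The difference varied with the set for 5 of the 8 fibroblast markers, Col1a1, Col1a2 and Col3a1 among them. This was a limma F test of the interaction of group and set, with Benjamini-Hochberg over all genes. The same test called 0 of the 34 genes, against 7.49% of all genes called. At an unadjusted p below 0.05 it held 5 of the 34 genes and 3504 of all 14026 genes.

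Among the TCA cycle genes the falls covered nearly every step that was measured. Citrate synthase (Cs), which starts the cycle, had a lowest, median and highest value of 628, 761 and 836 FPKM in the control group and 455, 586 and 692 FPKM in the hypertensive-LVH group. Of the 12 hypertensive-LVH samples 8 lay below the lowest control, and its log2 fold change was -0.38 ± 0.07 (SE, adjusted P = 1.55e-04, limma). The next step is run by the NAD-dependent isocitrate dehydrogenase, a complex of the products of Idh3a, Idh3b and Idh3g, and all 3 subunit genes fell. Idh3b ranged from 434 to 610 FPKM (median 540.5) in the control group and from 315 to 436 FPKM (median 400) in the hypertensive-LVH group. Only control sample 2 lay within the range of the hypertensive-LVH group, and the log2 fold change of -0.44 ± 0.06 (SE, adjusted P = 9.07e-06, limma) was the largest of the 14, just ahead of Suclg1. Idh3g ranged from 404 to 547 FPKM (median 467) in the control group and from 299 to 398 FPKM (median 370) in the hypertensive-LVH group. The groups did not overlap for Idh3g, which held for 2 of the 34 genes (Idh3g and Pccb) and for 0.485% of all genes, and its log2 fold change was -0.37 ± 0.05 (SE, adjusted P = 9.22e-06, limma). The catalytic subunit gene Idh3a fell by less, with a log2 fold change of -0.26, and the NADP-dependent mitochondrial enzyme gene Idh2 changed by -0.24. Idh2 was not called with quantile normalization (-0.05, adjusted P = 0.515) or without set B (-0.14, adjusted P = 0.217, limma).

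The promoters of Idh3b and Idh3g are shown as those of 2 subunit genes of 1 enzyme that fell together. The windows run from 250 bases before to 50 bases after the RefSeq transcription start (GRCm38.p6, both on the minus strand) and are written 5′ to 3′. They are chr2:130284402-130284701 for Idh3b and chrX:73786848-73787147 for Idh3g, and capitals mark CCGGAAG, the core bound by ETS factors such as GABP, or its reverse complement CTTCCGG.
Idh3b: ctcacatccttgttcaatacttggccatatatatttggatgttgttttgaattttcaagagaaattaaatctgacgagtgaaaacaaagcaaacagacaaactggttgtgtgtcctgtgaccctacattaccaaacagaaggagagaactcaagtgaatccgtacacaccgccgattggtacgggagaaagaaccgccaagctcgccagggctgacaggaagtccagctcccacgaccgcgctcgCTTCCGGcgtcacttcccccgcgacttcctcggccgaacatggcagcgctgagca
Idh3g: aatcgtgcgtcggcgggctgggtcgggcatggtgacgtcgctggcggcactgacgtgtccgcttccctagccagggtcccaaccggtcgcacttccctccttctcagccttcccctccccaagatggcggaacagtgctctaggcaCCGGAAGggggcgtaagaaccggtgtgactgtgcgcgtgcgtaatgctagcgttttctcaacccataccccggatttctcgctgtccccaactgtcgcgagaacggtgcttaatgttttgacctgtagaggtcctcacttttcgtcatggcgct
The match begins 5 bases before the start in Idh3b and 104 bases before it in Idh3g. Promoters were found for 30 of the 34 genes (40 windows, all but Idh3a, Dbt, Mut and Acat1). This motif, on either strand, was in 4 of the 40 windows (10%; Idh3b, Idh3g, Dlst and Auh) and in 8.86% of all 32851 windows. TNAAGGTCA, the site of estrogen-related receptors, was in 0 of the 40 windows and 1.28% of all, and the palindromic NRF1 site was in 0 of the 40 and 0.971% of all. A match describes letters in these windows and is not a measure of binding.

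The later steps of the cycle held the 2 genes that were not called. The 2-oxoglutarate dehydrogenase complex is made of Ogdh (E1), Dlst (E2) and Dld (E3). Ogdh fell with a log2 fold change of -0.23 and Dlst with -0.30, while Dld was at -0.02 with a 95% confidence interval of -0.14 to 0.09 (adjusted P = 0.770, limma). Ogdh was not called with quantile normalization (-0.12, adjusted P = 0.135) or without set B (-0.19, adjusted P = 0.0570, limma), where Dlst was at -0.20 and still called. The E3 subunit encoded by Dld is shared with the pyruvate and branched-chain ketoacid dehydrogenase complexes. Succinyl-CoA ligase pairs the α subunit of Suclg1 with an ATP-forming β subunit (Sucla2) or a GTP-forming β subunit (Suclg2). Suclg1 ranged from 233 to 334 FPKM (median 293) in the control group and from 171 to 245 FPKM (median 217) in the hypertensive-LVH group. Of the 12 controls 11 lay above every hypertensive-LVH sample, with a log2 fold change of -0.44 ± 0.06 (SE, adjusted P = 1.12e-05, limma).

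The β subunit genes of the ligase differed from each other. Suclg2 ranged from 55.1 to 73.4 FPKM (median 65.7) in the control group and from 49.2 to 62.3 FPKM (median 55.5) in the hypertensive-LVH group, with a log2 fold change of -0.25. Sucla2 ranged from 255 to 327 FPKM (median 283) in the control group and from 220 to 336 FPKM (median 272) in the hypertensive-LVH group. The ranges of Sucla2 overlapped widely, and its log2 fold change was -0.05 with a 95% confidence interval of -0.16 to 0.07. The log2 ratio of Suclg2 to Sucla2 within each sample was -2.08 ± 0.06 (SD, n = 12) in the control group and -2.28 ± 0.14 (SD, n = 12) in the hypertensive-LVH group. The ratio was lower by 0.20 on the log2 scale in the hypertensive-LVH group (-0.20, two-sided permutation test, adjusted p = 0.0012 over 4 ratios), and it was lower in all 4 sets, by between -0.26 and -0.15. The ATP-forming subunit gene was the more abundant in FPKM in every sample of both groups.

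The cycle closes with fumarase (Fh1), which fell with a log2 fold change of -0.31, and malate dehydrogenase. Mdh2, the mitochondrial form, had the highest mean of the 34 genes, 1265 FPKM ± 110 (SD, n = 12) in the control group and 1008 FPKM ± 127 (SD, n = 12) in the hypertensive-LVH group, with a log2 fold change of -0.33. Mdh1, the cytosolic form that takes part in the malate-aspartate shuttle, ranged from 908 to 1229 FPKM (median 1082) in the control group and from 761 to 1004 FPKM (median 847) in the hypertensive-LVH group. Its groups overlapped in 5 samples, and its log2 fold change was -0.35 ± 0.05 (SE, adjusted P = 4.75e-05, limma). With quantile normalization the log2 fold changes were -0.12 for Mdh2 and -0.16 for Mdh1, and both were still called.

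Of 23 other genes of the cycle and its carriers, 15 fell and 1 rose, with a median of -0.20. Those with the largest changes were Sdhb at -0.55 and Sdhc at -0.45, which encode the iron-sulfur subunit and a membrane anchor of succinate dehydrogenase, and the oxoglutarate carrier gene Slc25a11 at -0.41. The 1 gene that rose was Me2, a malic enzyme, at 0.16.

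Branched-chain amino acid breakdown held the largest fall of the 34 genes. Bckdha, the E1α subunit of the BCKDH complex that commits the branched-chain ketoacids to oxidation, ranged from 113 to 206 FPKM (median 160) in the control group and from 65.9 to 118 FPKM (median 101) in the hypertensive-LVH group. The mean fell by 40.8%, and 11 of 12 controls lay above every hypertensive-LVH sample. The log2 fold change was -0.76 ± 0.10 (SE, adjusted P = 9.22e-06, limma), with -0.44, -1.03, -0.77 and -0.81 in sets A to D. Bckdha lies at chr7:25629946-25658981 on the minus strand (GENCODE vM21, GRCm38) and shares 1171 of its 1899 exon bases with B3gnt8 on the opposite strand. B3gnt8 was at 1.79 FPKM ± 0.693 (SD, n = 12) in the control group and 2.94 FPKM ± 1.13 (SD, n = 12) in the hypertensive-LVH group, a log2 fold change of 0.49 (adjusted P = 0.0194, limma). The library protocol names no step that marks strand, so reads of the shared bases cannot be assigned to 1 of the genes by strand. The promoter window of Bckdha is shown as that of the gene with the largest fall (chr7:25658712-25659011, minus strand, GRCm38.p6, RefSeq), and it holds none of the 3 motifs searched.
Bckdha: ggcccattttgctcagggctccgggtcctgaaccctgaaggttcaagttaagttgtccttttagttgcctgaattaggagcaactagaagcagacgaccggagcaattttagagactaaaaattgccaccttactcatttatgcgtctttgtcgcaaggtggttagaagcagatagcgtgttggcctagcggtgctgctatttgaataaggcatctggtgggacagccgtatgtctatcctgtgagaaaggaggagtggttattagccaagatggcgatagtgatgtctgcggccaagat

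Its partner Bckdhb, the E1β subunit, ranged from 39.3 to 57.5 FPKM (median 50.7) in the control group and from 27.5 to 43.5 FPKM (median 36.1) in the hypertensive-LVH group. All controls but 1 lay above every hypertensive-LVH sample, and the log2 fold change was -0.47 ± 0.07 (SE, adjusted P = 1.17e-05, limma). The log2 ratio of Bckdha to Bckdhb was 1.66 ± 0.19 (SD, n = 12) in the control group and 1.37 ± 0.23 (SD, n = 12) in the hypertensive-LVH group, a difference of -0.29 (two-sided permutation test, adjusted p = 0.00456 over 4 ratios). The difference was -0.57 in set B and between -0.22 and -0.16 in the other sets. Leaving out set B gave -0.20, which no longer passed the threshold (exact permutation test, adjusted p = 0.0666). The E2 core gene of the complex, Dbt, was at -0.07 (95% confidence interval -0.24 to 0.09), so that within 1 complex both E1 genes fell while Dbt and Dld were not called.

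The regulators of the complex are a kinase that switches it off (Bckdk) and a phosphatase that switches it on (Ppm1k). Bckdk ranged from 47.5 to 56.6 FPKM (median 51.6) in the control group and from 38.5 to 48.8 FPKM (median 44.3) in the hypertensive-LVH group. Of the 12 hypertensive-LVH samples 11 lay below every control, and the log2 fold change was -0.24 ± 0.04 (SE, adjusted P = 3.87e-05, limma), the smallest SE of the 34 genes. The differences of Bckdk in the 4 sets were also close to each other, from -0.26 to -0.21. Ppm1k ranged from 14.9 to 24.6 FPKM (median 19.7) in the control group and from 14.2 to 24.2 FPKM (median 18.2) in the hypertensive-LVH group. The groups overlapped almost fully, with a log2 fold change of -0.07 (95% confidence interval -0.23 to 0.08). The log2 ratio of Bckdk to Ppm1k averaged 1.37 ± 0.23 (SD, n = 12) in controls and 1.20 ± 0.27 (SD, n = 12) in hypertensive-LVH samples, and the difference of -0.17 did not pass the test (two-sided permutation test, adjusted p = 0.104 over 4 ratios). Bcat2, the mitochondrial transaminase upstream of the complex, fell with a log2 fold change of -0.34, with -0.74 in set B and -0.04 in set C. Without set B the change of Bcat2 was -0.21 and was not called (adjusted P = 0.0834, limma).

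**Figure D3:**
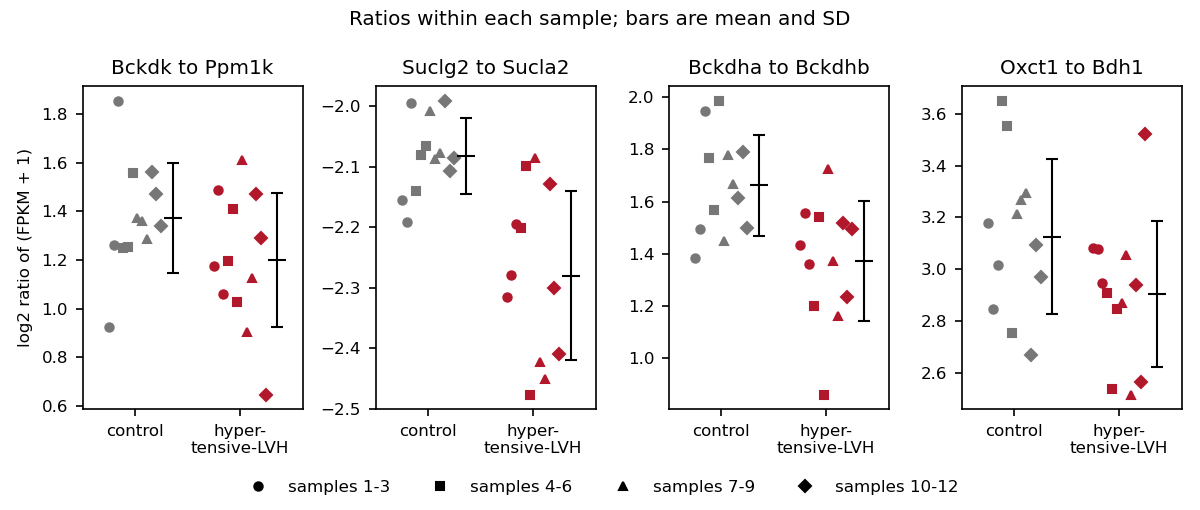
Log2 ratio of (FPKM + 1) of the 4 gene pairs within each sample (y axis) in both groups (x axis), with the 4 sets of samples as symbols and bars for the mean and SD of 12 samples. The ratio of Suclg2 to Sucla2 averaged -2.08 in the control group and -2.28 in the hypertensive-LVH group.

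Downstream of the complex, all 4 genes of the leucine route fell. Mccc2, the β subunit of methylcrotonyl-CoA carboxylase, ranged from 32.4 to 49.6 FPKM (median 39.9) in the control group and from 25.2 to 34.1 FPKM (median 27.6) in the hypertensive-LVH group. A single control lay within the range of the hypertensive-LVH group, and the log2 fold change was -0.50 ± 0.06 (SE, adjusted P = 2.94e-06, limma), the lowest adjusted P of the 34. The α subunit gene Mccc1 fell by less, at -0.25, and isovaleryl-CoA dehydrogenase (Ivd), 1 step earlier, was at -0.32. Auh, the methylglutaconyl-CoA hydratase 1 step later, ranged from 49.2 to 66.7 FPKM (median 62.4) in the control group and from 39.7 to 54.8 FPKM (median 48.6) in the hypertensive-LVH group. Its log2 fold change was -0.37 ± 0.05 (SE, adjusted P = 1.32e-05, limma), and 11 of 12 controls lay above every hypertensive-LVH sample.

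The valine and isoleucine routes were mixed. Hibadh, the hydroxyisobutyrate dehydrogenase of valine breakdown, ranged from 124 to 173 FPKM (median 153) in the control group and from 101 to 131 FPKM (median 113) in the hypertensive-LVH group. Its log2 fold change was -0.41 ± 0.05 (SE, adjusted P = 6.18e-06, limma), and 9 of 12 hypertensive-LVH samples lay below every control. The hydrolase gene just before it, Hibch, was at 0.01 (95% confidence interval -0.11 to 0.12), and Aldh6a1, the semialdehyde dehydrogenase just after it, was at -0.21 (adjusted P = 0.0833, limma). Aldh6a1 shares 1078 exon bases with Bbof1, which was at 1.79 FPKM in the control group against 67.0 FPKM for Aldh6a1. Acadsb, the acyl-CoA dehydrogenase of the isoleucine route, was at 0.07 (95% confidence interval -0.07 to 0.21). Propionyl-CoA, which both routes yield, is carboxylated by the product of Pcca and Pccb, and both genes fell, with log2 fold changes of -0.25 and -0.32. The groups did not overlap for Pccb, whose values were 65.5 to 82.1 FPKM in the control group and 51.3 to 63.3 FPKM in the hypertensive-LVH group. Mut, the mutase that then delivers succinyl-CoA to the TCA cycle, was at -0.13 and was not called (adjusted P = 0.128, limma).

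**Figure D4:**
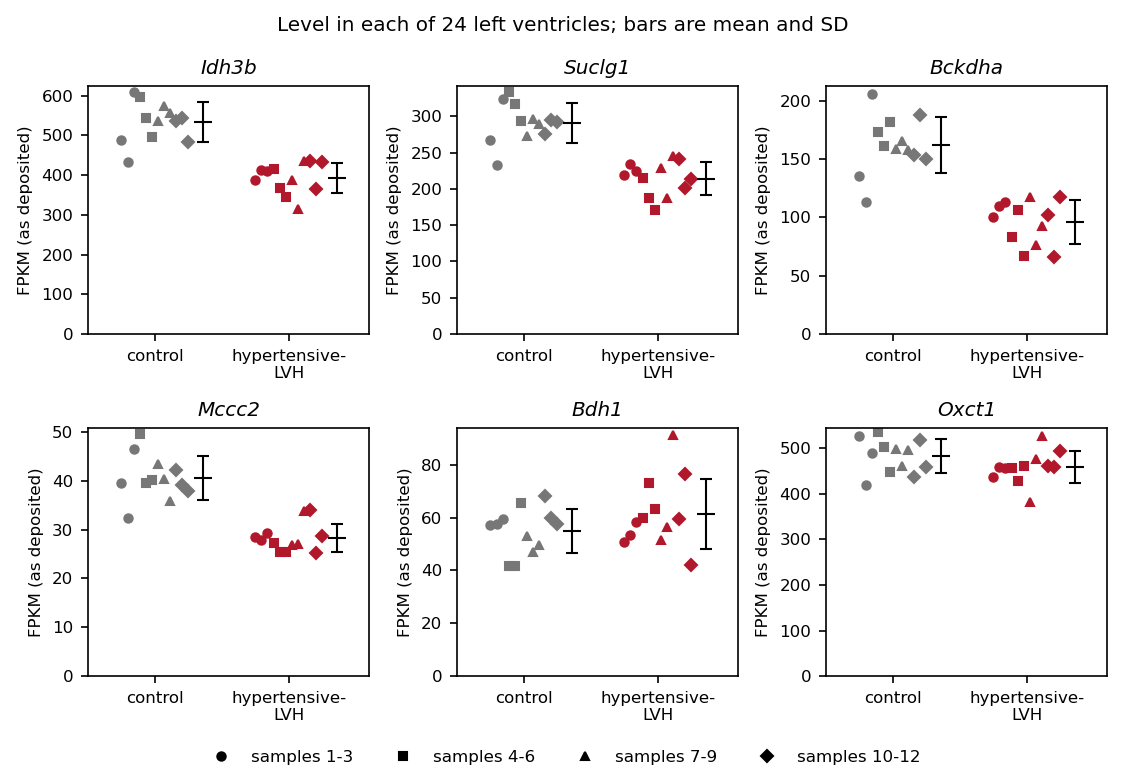
FPKM as deposited (y axis, from 0) of 6 of the genes in each of the 12 control and 12 hypertensive-LVH samples (x axis), with the 4 sets of samples as symbols and bars for the mean and SD. The groups nearly separate for Idh3b, Suclg1, Bckdha and Mccc2, with 11 of 12 controls above every hypertensive-LVH sample, and overlap for Bdh1 and Oxct1.

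Other genes of branched-chain metabolism moved in both directions. Of 20 such genes 19 were in the table, 10 of which fell and 4 rose, with a median of -0.26. Those with the largest changes were Hadh at -0.68 and Acaa2 at -0.61, a dehydrogenase and a thiolase that also serve fatty acid oxidation, and the amino acid transporter gene Slc7a8 at 0.57. All 4 genes that rose encode amino acid transporters or their partner, the others being Slc7a5 at 0.49, Slc3a2 at 0.31 and Slc43a2 at 0.20, and they were named after their values were seen. Slc7a5 and Slc7a8 were low in both groups, with means of 2.99 and 2.72 FPKM in the control group and 4.63 and 4.57 FPKM in the hypertensive-LVH group.

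Of the ketone genes, only the last in the route was called. Bdh1, which oxidizes hydroxybutyrate to acetoacetate, ranged from 41.9 to 68.1 FPKM (median 57.5) in the control group and from 42.1 to 91.5 FPKM (median 58.8) in the hypertensive-LVH group. The medians were close and only the upper end differed, and the log2 fold change was 0.15 (95% confidence interval -0.06 to 0.35, adjusted P = 0.274, limma). Oxct1, the transferase that commits acetoacetate to oxidation outside the liver, ranged from 420 to 537 FPKM (median 493) in the control group and from 383 to 528 FPKM (median 459) in the hypertensive-LVH group. Its log2 fold change was -0.07 (95% confidence interval -0.17 to 0.03, adjusted P = 0.240, limma). The smallest fall of the 12 TCA cycle genes that were called was that of Ogdh, -0.23 (95% confidence interval -0.35 to -0.11). These intervals overlap, and the difference between the genes was not tested. Acat1, the thiolase that splits acetoacetyl-CoA and also ends the isoleucine route, ranged from 187 to 256 FPKM (median 220) in the control group and from 171 to 217 FPKM (median 188) in the hypertensive-LVH group. Acat1 was the only ketone gene that fell, with a log2 fold change of -0.21 ± 0.05 (SE, adjusted P = 0.00238, limma), and it was the gene of the 24 with the smallest fall.

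The differences of Bdh1 within the sets were -0.10 in set A, 0.42 in set B, 0.36 in set C and -0.10 in set D, and their variation between sets did not pass the interaction test (adjusted P = 0.350, limma). The log2 ratio of Oxct1 to Bdh1 averaged 3.13 ± 0.30 (SD, n = 12) in controls and 2.91 ± 0.28 (SD, n = 12) in hypertensive-LVH samples, and the difference of -0.22 did not pass the test (two-sided permutation test, adjusted p = 0.1001 over 4 ratios). It was -0.33 and passed without set D (exact permutation test, adjusted p = 0.0225). Within the sets the difference was 0.02, -0.56, -0.44 and 0.10 in sets A to D.

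**Figure D5:**
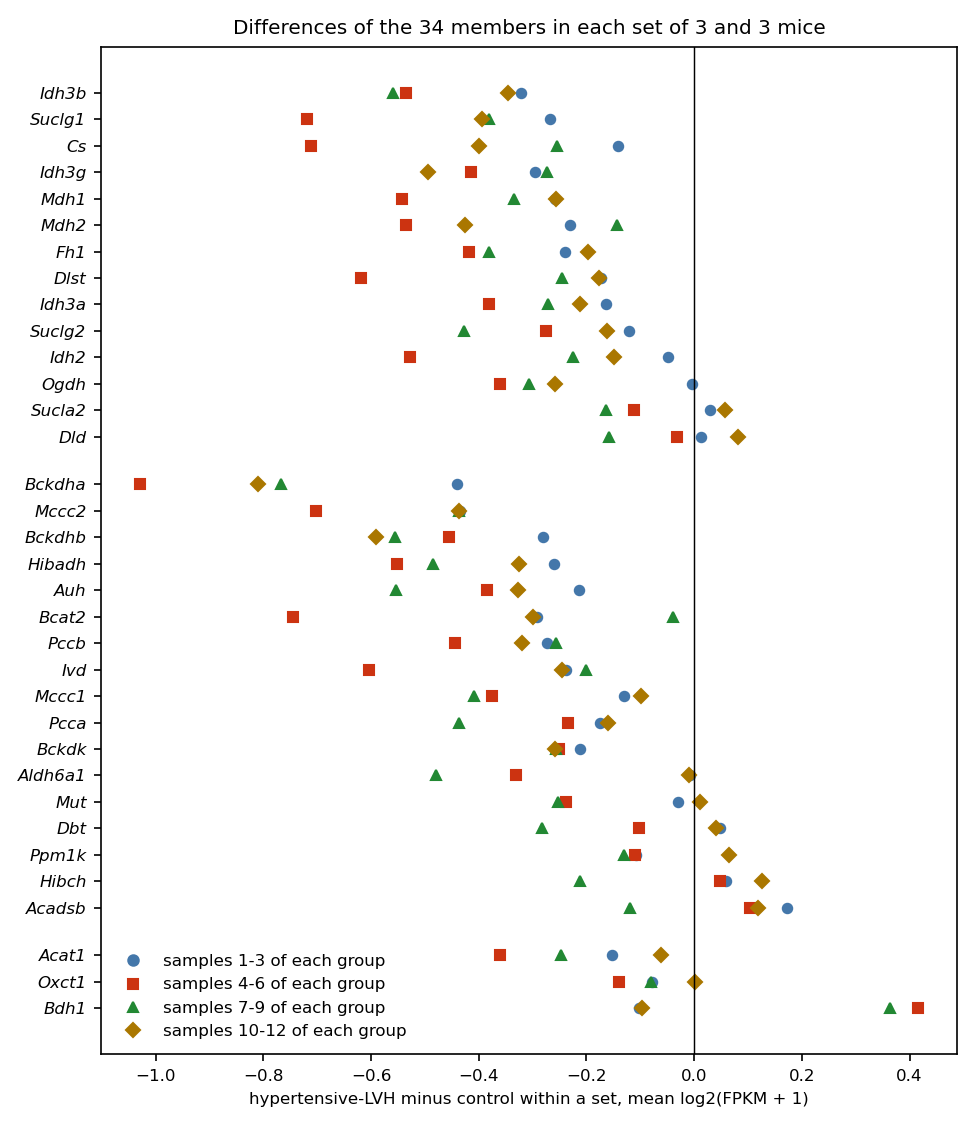
Difference between the groups in mean log2(FPKM + 1) (x axis) of each of the 34 genes (y axis) within each set of 3 and 3 samples, with 1 symbol per set. Bckdha lies between -1.03 and -0.44 in all 4 sets, and Bdh1 lies above 0 in sets B (samples 4-6) and C (samples 7-9) and below 0 in the others.

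Of 12 other ketone genes 10 were in the table, 2 of which fell and 3 rose, with a median of 0.11. The monocarboxylate transporter genes Slc16a3 and Slc16a6 were among those that rose, at 1.04 and 0.21. Slc16a3, known for lactate export, was at 2.06 FPKM ± 0.922 (SD, n = 12) in the control group and 5.33 FPKM ± 2.17 (SD, n = 12) in the hypertensive-LVH group.

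Beside these pathways, 14 of 18 fatty acid oxidation genes fell and 0 rose (limma, 14 and 0 at an unadjusted p below 0.05 as well), with a median of -0.26, close to the medians of the TCA cycle and branched-chain genes. Of 18 glycolysis genes, 6 fell and 4 rose, with a median of -0.01. Among the 3453 genes with a mean of at least 20 FPKM, a level that all of the 34 genes but Ppm1k reached, 902 fell and 756 rose, and the median was 0.01.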

How the data were processed

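Poly(A)-selected RNA of the left ventricle was sequenced as paired-end Illumina reads. The authors deposited 1 FPKM value per gene symbol and sample. Per the labels, HISAT, Bowtie2 and RSEM were used, and versions, genome build and annotation were not given in the sources used here. The deposited values are treated as a score, since 2741 of them are negative and ties mark out sets of samples within each group. They were read as adjusted gene by gene within these sets, a step that the study's methods do not name. Ties of at least 100 genes joined samples of the same group into a set, and the sets of either group were matched by sample number. Such an adjustment was not undone, and the tests take the values as independent samples, so that p-values may be too small if it used the group labels, which was not tested. The extraction text in the labels names another cell type, while the tissue is given as left ventricle.

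Negative values were set to 0 in fits and kept in sums and means. The 14026 genes whose mean reached 0.1 were fitted in limma 3.58.1 (R 4.3.3) with an intensity trend on log2(FPKM + 1). This understates changes of low genes, and edgeR, which needs counts, was not used. Ratios were tested by permutation of samples with 100000 resamples, or exactly with 9 samples a group (scipy 1.17.1). All tests were two-sided. Sample numbers were checked for pairing and the replicate number was used as a block only as an alternative. The fit was tested on simulated data.

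The genes and lists were chosen with earlier results of these data known. Every member is named, and ranges are given for the 5 TCA cycle and 5 branched-chain genes with the largest changes, the ketone genes and the genes of the ratios. Values of Pccb were added after they were seen. Of each other list of the 3 pathways the 3 genes with the largest change among those called are named, except for 1 gene that is not reported here, and other genes were named after their values were seen. Among other marker lists, 1 of 4 atrial markers rose, and 0 of 3 adipocyte markers were called (limma, 0 at an unadjusted p below 0.05). Alternatives were an added value of 0.1, all genes unfiltered, a minimum mean of 1, quantile normalization, median-ratio scaling, no intensity trend, set as a term, genes with a negative value left out, a Wilcoxon test and leaving out each set. Promoters came from RefSeq (GRCm38.p6) and gene positions from GENCODE vM21.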

Additional observations from a re-analysis of the deposited data

How the results depend on the processing

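Of the 24 genes called lower, 21 were called lower in all 14 alternatives. The count was 24 in all alternatives but 3. It was 22 with quantile normalization, where Idh2 (-0.05) and Ogdh (-0.12) were not called. Leaving out set B made it 21, where Idh2 (-0.14, adjusted P = 0.217), Ogdh (-0.19, adjusted P = 0.0570) and Bcat2 (-0.21, adjusted P = 0.0834, limma) were not called. Leaving out set D made it 25, with Aldh6a1 at -0.27 (adjusted P = 0.0483, limma). Quantile normalization also turned the split over all genes from 2928 higher and 1769 lower to 1922 higher and 2930 lower, and without set B the split was 1173 and 1629. The cause was not tested. Hibch, near 0, changed sign with quantile normalization (-0.023), with median-ratio scaling (-0.032), and without set A (-0.012), B (-0.0086) or D (-0.035), as did Dld without set C (0.021). The ratio of Bckdha to Bckdhb lost its call without set B (-0.20, exact permutation test, adjusted p = 0.0666), and that of Oxct1 to Bdh1 gained a call without set D (-0.33, exact permutation test, adjusted p = 0.0225). Deviations of same-numbered samples correlated between -0.557 and -0.00109 over 12 pairs, so no pairing was seen. This check cannot exclude pairing, because an adjustment within sets can remove what same-numbered samples share. With the replicate number as a block, 24 genes were lower, and the block changed no call of a member or ratio. It lowered the calls over all genes to 1238 lower and 1586 higher. The unknown number of fragments per sample and the adjustment inferred from ties limit how far small differences can be read.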
